A study of Mus musculus with 4 samples.

Results

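The cytosolic ribosomal protein genes code for the protein parts of the ribosome, and their ribosome-protected signal was examined here gene by gene. They were chosen by name alone, as protein-coding genes called Rpsa or named in the Rpl, Rps or Rplp series, so no measured value entered the choice. The rule took 83 genes of the 55573 in the table (21900 of them protein-coding), 51 of the large subunit and 32 of the small subunit. The study compared proliferating primary myoblasts, muscle precursor cells cultured from the hind-limb muscle of 3-week-old mice, between wild type (WT) and an eIF5A knockout (KO), with 2 libraries in each group. eIF5A is a translation factor that helps ribosomes past difficult stretches such as runs of proline. The KO line of the study is Pax7 CreERT2/+; eIF5A f/f, on a C57BL/6j background, in which the Pax7 locus drives a Cre that tamoxifen activates, and so one made in the muscle stem cell lineage. By the study's text, the KO mice were induced with tamoxifen and the WT mice were littermates. The study describes its WT controls in one place as Pax7 CreERT2/+ and in another as Pax7 +/+; eIF5A f/f, so which of these the WT libraries were is not settled here. All cells were grown in 10% fetal bovine serum with 10 ug/ml FGF, collected on day 2 of proliferation and held with 100 ug/ml cycloheximide, for a time on which the sources differ. The sample titles read Polysome-Seq, while the extraction text describes RNase I digestion and recovery of protected fragments, which is ribosome profiling. Nothing in the labels says that the replicates came from separate animals or cultures, so p-values measure the spread between these libraries, which may be technical.

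The libraries held between 642429 and 704006 reads, recovered from RPKM (reads scaled by gene length and by the library size the authors used). Reads on protein-coding genes made up 41.5% and 33.9% of the WT libraries against 65.4% and 59.2% under the KO label, so the groups also differ in what else their libraries contained. Mitochondrial rRNA took 39.1% and 30.1% of the WT reads against 15.0% and 18.5% under the KO label, and miRNA genes took 16.8% in WT replicate 2 against 2.31% to 4.30% in the other libraries. Eif5a itself, the gene that the knockout targets, had 34.9 and 65.2 RPKM in WT against 60.3 and 59.4 RPKM under the KO label. It was not lower under the KO label, and every direction below is therefore that of the libraries labelled KO. Of 8 muscle lineage markers, 7 had reads in each library and Myf5 had none in KO replicate 2, and the fitted changes of all 8 were below 0.

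Each ribosome holds a single copy of nearly every ribosomal protein, and free ribosomal proteins are quickly degraded, so cells make them in step with ribosomal RNA. Most of their mRNAs begin with a cytosine followed by a run of pyrimidines, the terminal oligopyrimidine (TOP) tract, through which mTOR signalling and the binding protein Larp1 set their translation together. In muscle stem cells, leaving quiescence is accompanied by growth and by the making of new ribosomes. Mammalian genomes also carry many processed pseudogenes of these short, abundant mRNAs, whose sequences resemble the parent gene.

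The annotated first bases were read to see which of these genes have a TOP tract at the listed start. RefSeq starts (GRCm38.p6) were found for 63 of the 83 genes, and a C followed by at least 4 pyrimidines (C or T), starting within 5 bases of the start on the gene's own strand, was found for 29 of them (46.03%). Of 16571 protein-coding genes with a start, 21.8% had such a tract. Below are 30 bases, from 10 before to 20 after the start, of members that the results below name, with any tract in capitals. The first 7 have a tract at the listed start and the last 5 do not. They lie at chr4:86857348-86857377 (Rps6, minus strand), chr11:114668570-114668599 (Rpl38, plus), chr7:141447641-141447670 (Rplp2, plus), chr10:128626487-128626516 (Rps26, minus), chr3:28805498-28805527 (Rpl22l1, plus), chr3:90213629-90213658 (Rps27, minus), chr9:66946076-66946105 (Rps27l, plus), chr5:115559457-115559486 (Rplp0, plus), chrX:134585644-134585673 (Rpl36a, plus), chr1:72711250-72711279 (Rpl37a, plus), chr9:44407704-44407733 (Rps25, plus) and chrX:74270806-74270835 (Rpl10, plus).
Rps6: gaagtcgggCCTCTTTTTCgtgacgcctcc
Rpl38: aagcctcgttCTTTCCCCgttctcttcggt
Rplp2: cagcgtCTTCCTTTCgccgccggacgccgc
Rps26: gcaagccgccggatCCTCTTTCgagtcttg
Rpl22l1: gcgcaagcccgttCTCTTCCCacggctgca
Rps27: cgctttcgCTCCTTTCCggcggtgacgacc
Rps27l: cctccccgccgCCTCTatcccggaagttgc
Rplp0: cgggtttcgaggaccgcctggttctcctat
Rpl36a: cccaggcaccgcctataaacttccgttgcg
Rpl37a: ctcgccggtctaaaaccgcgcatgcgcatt
Rps25: ccgacatcttagcgaggctgctgtggtcta
Rpl10: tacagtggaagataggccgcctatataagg
A missing tract says only that these letters are not at the listed start. The 20 members with no entry matched included Rpl3, Rpl7, Rpl8, Rpl17, Rpl21, Rpl23a, Rpl29, Rpl30, Rpl32, Rpl36, Rplp1, Rps14, Rps20, Rps27a and Rps29.

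The ribosomal protein genes were among the most heavily read genes in these cells. They received 22363 reads over the 4 libraries, with a median of 195 reads per gene, and 78 of the 83 had reads in every library. To compare genes of different length, reads were divided by kilobases of coding sequence and scaled to 1000000 protein-coding reads, here called the coding level. The median member had a coding level of 318, above 97.1% of the 14490 protein-coding genes with reads, whose median was 17.0. The 80% of members with reads in the middle of the order lay between 123 and 1096, an 8.90-fold range. The members include paralogues, and their level varied with their pseudogene entries, as given below. Whether this range reflects unequal making of the proteins was not tested. The median coding level was 301 in the large subunit and 328 in the small subunit.

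By RPKM, the members with the highest means were Rplp1, Rpl8, Rpl38 and Rpl4. By mean coding level, Rplp1 ranked 1, Rpl38 ranked 2, Rpl8 ranked 4 and Rpl4 ranked 13 among the members. Rpl8, which lies next to the peptidyl transferase centre, had 232 and 412 RPKM in WT against 271 and 399 RPKM under the KO label. Rpl38, known for its part in translating Hox mRNAs, had 162 and 450.4 RPKM in WT against 291 and 345 RPKM under the KO label. In both genes the replicates of a group differed more than the group means. Rpl4, which lines the exit tunnel of the nascent chain, had 373 and 236 RPKM in WT against 214 and 215 RPKM, the KO pair lying just under the lower WT value. At the other end, Rpl10l and Rpl3l had no reads, Rpl39l had 1, Rpl24 had 5 and Rpl35 had 8 in all. Rpl24 shares its locus with the annotated gene Gm28037, and Rpl35 with Arpc5l and Wdr38. How reads that fall on more than 1 gene were counted is not given in the sources used here, so the low values of these genes are uncertain.

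**Figure D1:**
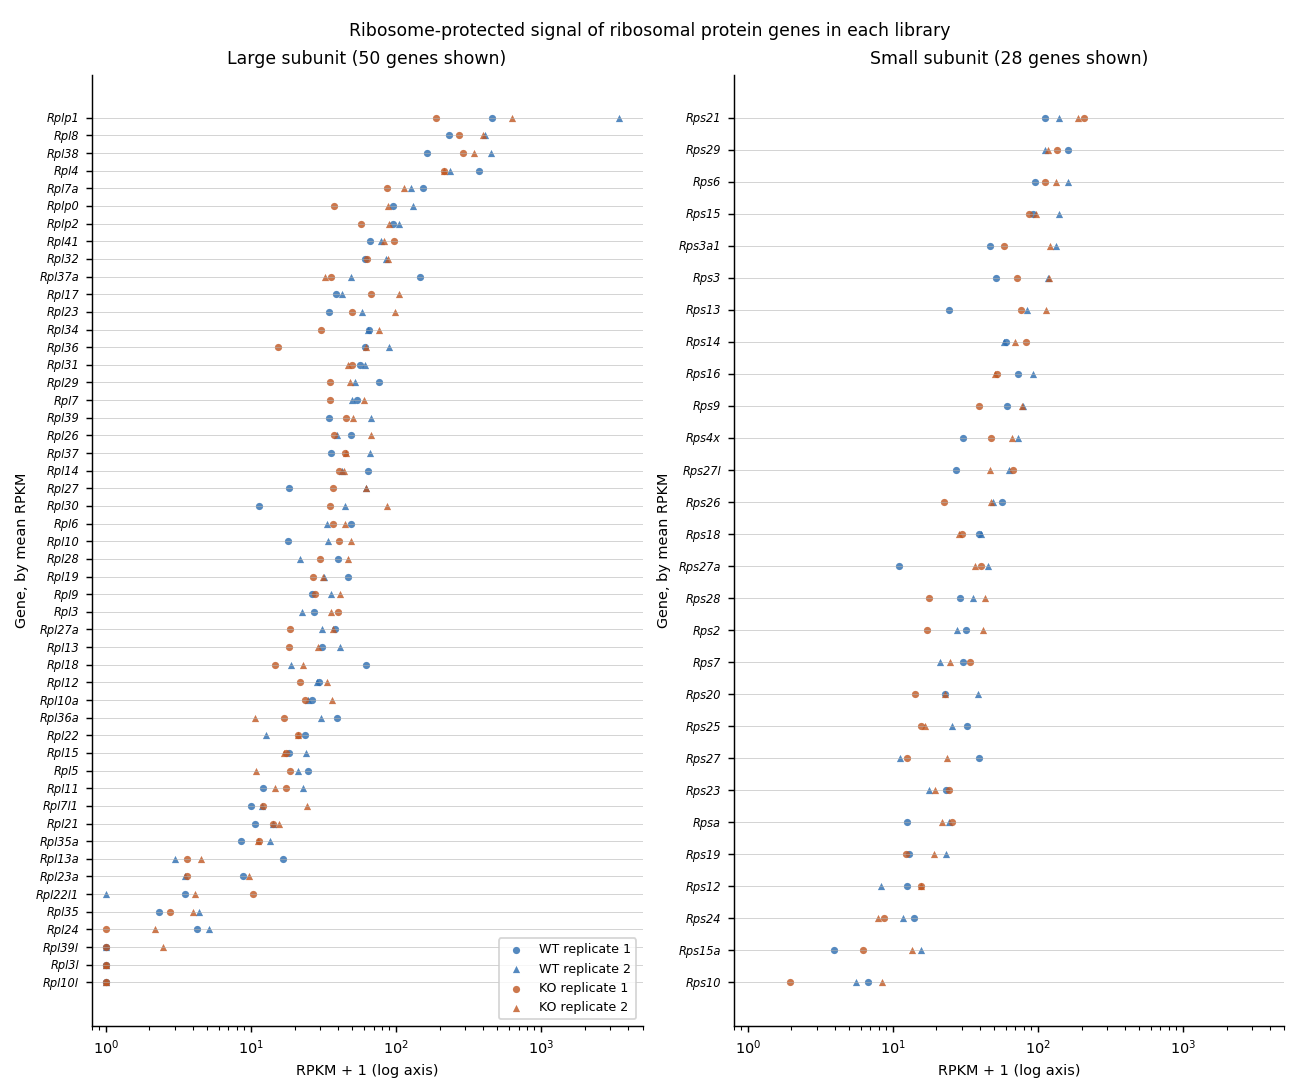
Ribosome-protected signal (RPKM + 1, log axis) of 78 ribosomal protein genes, 50 of the large subunit and 28 of the small subunit, ordered by mean RPKM. Each point is 1 library. Rplp1, at the top of the large subunit, spreads from 188 to 3467 RPKM, and Rpl3l and Rpl10l sit at 0 RPKM in all libraries.

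No ribosomal protein gene passed the test between the groups. Of the 83 genes, 80 reached the minimum mean of 1 RPKM and were tested by limma on log2(RPKM + 1), and 0 had an adjusted p under 0.05, the smallest being 0.660. Over all 11363 tested genes, 0.106% passed at this threshold in either direction. At an unadjusted p under 0.05, 2 members were lower in the libraries labelled KO (Rpl36a and Rpl24) and 0 were higher, 2.5% of those tested. The background among the 9877 tested protein-coding genes was 3.04% lower and 2.94% higher, so the members' count was at or below it. With limma-voom on the recovered reads, 4 of 77 members were lower (Rpl36a, Rplp1, Rpl37a and Rplp0) and 2 were higher (Rpl17 and Rpl30) at an unadjusted p under 0.05. In that fit 4.93% of protein-coding genes were lower and 3.59% higher, and the smallest adjusted p of a member was 0.320.

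The changes of the members centred on 0. The median log2 fold change (KO minus WT) was -0.019 over the 80 tested members, beside 0.00026 over all tested genes and 0.049 over the tested protein-coding genes. Of the members, 42 lay below 0 and 38 above. The middle 50% lay between -0.47 and 0.28, and 71 of 80 (88.8%) lay within 1 of 0, as did 86.8% of the protein-coding genes. The median standard error was 0.48 both for the members and for the protein-coding genes, so only changes well above this size could be told from the spread in a single gene. In 19 members (23.8%) both libraries labelled KO were below both WT libraries, and in 11 members (13.8%) both were above. Among the tested protein-coding genes 19.3% were lower and 22.4% higher by the same measure. Leaving out 1 library turned the sign of 42 of the 80 members (52.5%), beside 44.8% of the 9068 protein-coding genes tested in each of these fits. All 42 were among the 50 members whose groups overlapped, since without overlap the sign cannot turn in this way.

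The scaling of the libraries set the absolute level but not the place of the members among other genes. The divisor that the authors used as library size was 602863 and 471136 in WT, and 906990 and 807705 under the KO label. With all libraries scaled to the same total signal, the median of all genes moved to 0.50 and that of the members to 0.54. In that scaling 11 of 80 members (13.8%) were higher at an unadjusted p under 0.05, against 16.4% of protein-coding genes. Relative to the median of all genes, the members lay 0.049 above it in that scaling and 0.019 below it in the deposited one.

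**Figure D2:**
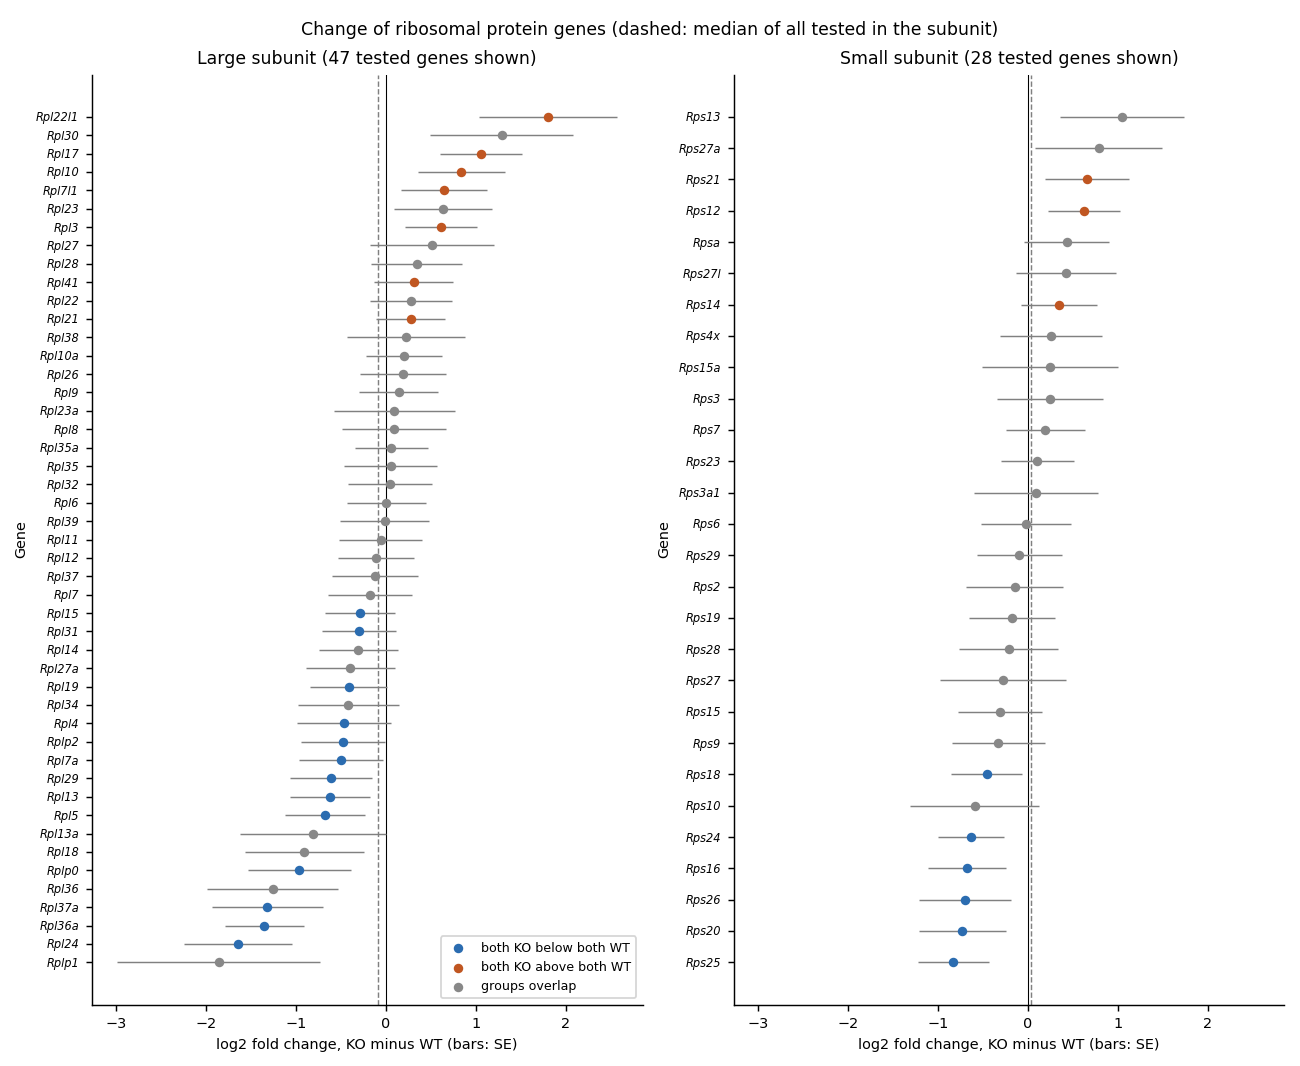
Log2 fold change (KO minus WT, on log2(RPKM + 1)) of 47 tested large subunit and 28 tested small subunit genes, with standard errors as bars. Blue and orange mark genes whose groups do not overlap, and dashed lines mark the medians over all tested genes of each subunit, -0.085 and 0.038, both close to 0.

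Of the large subunit genes, Rplp0, Rplp1 and Rplp2 form the flexible stalk on which the elongation factors land. Rplp1 (ENSMUSG00000007892; GRCm38 chromosome 9, 61913284 to 61914542, minus strand, 3 exons) had the highest RPKM of the members in both WT libraries and in KO replicate 2. It had 137 and 815 reads in WT against 85 and 255 under the KO label, or 455 and 3467 RPKM against 188 and 633 RPKM. WT replicate 2 stood far above the other 3 libraries, and the groups overlapped. The log2 fold change was -1.86 ± 1.13 (SE, adjusted p 0.697 by limma), and it was -0.40 without WT replicate 2.

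Rplp0, the base of the stalk (chromosome 5, 115559467 to 115563727, plus strand, 7 exons), had 94.0 and 130.5 RPKM in WT against 36.6 and 86.6 RPKM under the KO label. The groups did not overlap, and KO replicate 1 was the lowest library. The log2 fold change was -0.96 ± 0.57 (SE, adjusted p 0.697 by limma), and it was -0.35 without KO replicate 1. Rplp2 had 93.7 and 104 RPKM in WT against 56.4 and 89.0 RPKM under the KO label, also without overlap. Its log2 fold change was -0.48 ± 0.47 (SE, adjusted p 0.745 by limma), and it was -0.15 without KO replicate 1. All 3 stalk genes were thus below 0, and none passed the test.

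Rpl36a had the smallest p-value of the members. It lies on chromosome X (ENSMUSG00000079435; 134585654 to 134588062, plus strand, 5 exons) and codes for a small basic protein of the large subunit, 31.1% lysine and arginine. It had 38 and 23 reads in WT against 24 and 13 under the KO label. Scaled, these were 38.1 and 29.5 RPKM in WT against 15.99 and 9.73 RPKM under the KO label, so both KO values lay below both WT values. The log2 fold change was -1.35 ± 0.44 (SE, unadjusted p 0.0218 and adjusted p 0.660 by limma). It was negative in all 14 fits (the deposited scale and its alternatives), from -1.69 to -0.77, and had an unadjusted p under 0.05 in 10 of them. The near copy Rpl36al, which is no member by the rule, had 2 and 1 reads in WT against 3 and 0 under the KO label. How reads matching both genes were counted is not given in the sources used here.

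Rpl24 and Rpl37a also had lower values without overlap. Rpl24, a protein at the bridge between the subunits, had 2 and 2 reads in WT against 0 and 1 under the KO label, too few for a fold to be given. Rpl37a (chromosome 1, 72711290 to 72713813, plus strand) had 146 and 48.2 RPKM in WT against 34.4 and 31.6 RPKM under the KO label. The groups did not overlap, and WT replicate 1 stood apart. Its log2 fold change was -1.32 ± 0.62 (SE, adjusted p 0.676 by limma), and it was -0.53 without WT replicate 1.

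Rpl5 and Rpl11 bind the 5S rRNA and, when ribosome assembly is disturbed, the p53 regulator Mdm2. Rpl5 had 23.7 and 20.03 RPKM in WT against 17.7 and 9.79 RPKM under the KO label, with no overlap. Rpl11 had 11.1 and 22.04 RPKM in WT against 16.4 and 13.8 RPKM under the KO label, so its KO values lay within the WT range. The log2 fold changes were -0.68 ± 0.44 (SE) for Rpl5 and -0.06 ± 0.46 (SE) for Rpl11, with adjusted p of 0.697 and 0.973 by limma. Without KO replicate 2 the change of Rpl5 was -0.28.

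The large subunit genes with higher values included Rpl17 and Rpl10. Rpl17, which sits at the mouth of the exit tunnel, had 37.5 and 41.6 RPKM in WT against 66.5 and 104 RPKM under the KO label. Both KO values lay above both WT values. The log2 fold change was 1.06 ± 0.46 (SE, unadjusted p 0.0599 and adjusted p 0.675 by limma). Rpl10, a protein that joins the large subunit late in its assembly (chromosome X, 74270812 to 74273135, plus strand), had 17.0 and 33.1 RPKM in WT against 39.2 and 47.6 RPKM under the KO label. Its groups did not overlap, and its log2 fold change was 0.84 ± 0.48 (SE, adjusted p 0.697 by limma), or 0.38 without WT replicate 1. Rpl30 had a change of 1.29 ± 0.79 (SE), which was 0.31 without WT replicate 1, and its replicates differed widely, with 10.4 and 43.6 RPKM in WT against 34.0 and 86.1 RPKM under the KO label.

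The small subunit genes lay between -0.83 and 1.05. None of the 32 had an unadjusted p under 0.05 by limma or by limma-voom, and 31 lay within 1 of 0. Of these genes 16 were below 0 and 16 above, with a median of 0.038, while the 48 tested large subunit genes had 26 below, 22 above and a median of -0.085. Without WT replicate 1 the order of these medians turned, with -0.35 in the small and -0.17 in the large subunit. The groups did not overlap in 6 small subunit genes with lower values (18.8%) and 4 with higher ones (12.5%), and in 13 (27.1%) and 7 (14.6%) large subunit genes, beside 19.3% and 22.4% of the tested protein-coding genes.

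Rps6, the substrate of the S6 kinases downstream of mTOR, had 94.1 and 161 RPKM in WT against 111 and 132 RPKM under the KO label. Its log2 fold change was -0.02 ± 0.50 (SE), and the KO values lay inside the WT range. Rps3, at the entry of the mRNA channel, had 50.7 and 116 RPKM in WT against 70.6 and 118 RPKM under the KO label. Rpsa, first known as a laminin receptor precursor, had 11.51 and 23.4 RPKM in WT against 24.7 and 20.7 RPKM. Rps2 had 30.8 and 26.7 RPKM in WT against 16.3 and 40.6 RPKM, its KO values falling on either side of both WT values. The groups overlapped in all 4 of these genes, and also in Rps4x, which had 29.5 and 71.6 RPKM in WT against 46.6 and 65.3 RPKM.

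Rps25, required by some viral mRNAs to start translation internally, had 31.4 and 24.5 RPKM in WT against 14.7 and 15.6 RPKM under the KO label. It had the lowest change of the small subunit, -0.83 ± 0.39 (SE, unadjusted p 0.0803 and adjusted p 0.676 by limma), without overlap, and it shares its locus with Trappc4 and Ccdc84. Rps21 lay in the other direction, with 111 and 139 RPKM in WT against 206 and 188 RPKM under the KO label. Its log2 fold change was 0.66 ± 0.47 (SE, adjusted p 0.704 by limma). Rps14, the gene lost in the 5q- syndrome of bone marrow, had 59.6 and 57.6 RPKM in WT against 81.5 and 68.3 RPKM, with a change of 0.34 and a standard error of 0.42 (0.22 without KO replicate 1). Rps27a, made as a fusion with ubiquitin, had 10.1 and 44.1 RPKM in WT against 39.7 and 35.8 RPKM, and WT replicate 1 was the low library.

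Rps19, Rps26 and Rpl35a are among the genes mutated in Diamond-Blackfan anaemia. Rps19, the gene most often affected, had 12.04 and 22.2 RPKM in WT against 11.3 and 18.2 RPKM under the KO label. Rpl35a had 7.53 and 12.6 RPKM in WT against 10.3 and 10.2 RPKM. Their log2 fold changes were -0.18 and 0.06, and their groups overlapped. Rps26 had 55.9 and 48.1 RPKM in WT against 21.4 and 46.5 RPKM, with no overlap by a narrow margin and a change of -0.70 ± 0.51 (SE, adjusted p 0.710 by limma), which was -0.15 without KO replicate 1.

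Several ribosomal proteins have a paralogue, and some of these paralogues can take their place in some tissues. Whether each paralogue below does so was not tested. Rpl3l replaces Rpl3 in mature heart and skeletal muscle fibres, and here it had 0 reads in all 4 libraries against 283 reads on Rpl3. Set against a floor of 3 reads over the 4 libraries and corrected for gene length, Rpl3 was at least 48.8-fold higher. Rpl10l, known from the testis, also had 0 reads against 205 on Rpl10, which was at least 34.1-fold higher. Rpl39l had 1 read against 189 on Rpl39, a ratio per gene length of 0.00913 with a 95% counting interval from 0.00023 to 0.0515. The signal of these 3 pairs thus came almost wholly from the common member. Rpl3 had 26.1 and 21.4 RPKM in WT against 38.9 and 34.7 RPKM under the KO label, without overlap, and its log2 fold change was 0.61 ± 0.40 (SE, adjusted p 0.697 by limma).

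The other pairs had reads on both members. Rpl22l1 had 3 and 0 reads in WT against 17 and 5 under the KO label. With the group's library sizes, its signal was 4.59-fold that of WT, with a 95% counting interval from 1.38 to 24.0. This interval leaves out the spread between libraries, and limma gave an adjusted p of 0.675. Its log2 fold change of 1.81 ranged from 0.90 without WT replicate 2 to 2.71 without WT replicate 1. Rpl22, which binds RNA and is known from T cell development, had 22.8 and 11.7 RPKM in WT against 20.07 and 19.99 RPKM. The ratio of Rpl22l1 to Rpl22 was 0.11 and 0 in WT against 0.469 and 0.156 under the KO label. Rpl7 had 53.1 and 49.0 RPKM in WT against 34.1 and 59.4 RPKM, and Rpl7l1 had 9.02 and 10.9 RPKM against 11.04 and 23.4 RPKM. The ratio of Rpl7l1 to Rpl7 was 0.170 and 0.223 in WT against 0.324 and 0.393 under the KO label. In both pairs the KO ratios lay above the WT ratios, and the exact permutation p (two-sided) was 0.333, the smallest that 2 against 2 libraries allow.

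Rps27l, a p53 target, was read more than Rps27 in 3 of the 4 libraries. Their ratio was 0.692 and 6.14 in WT against 5.69 and 2.02 under the KO label, so WT replicate 1 was the exception and the groups overlapped (exact two-sided permutation p = 1). Over all libraries Rps27l had 116 reads and Rps27 had 59, a ratio per gene length of 2.51 with a 95% counting interval from 1.82 to 3.50. The gene lengths were 816 and 1043 bases, and the coding sequences 315 and 252 bases. By coding level the difference was smaller, with means of 272 for Rps27l and 184 for Rps27. Adjusted over these 3 pairs (Benjamini-Hochberg), the exact permutation p was 0.500 for Rpl22l1 and Rpl7l1 and 1 for Rps27l.

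**Figure D3:**
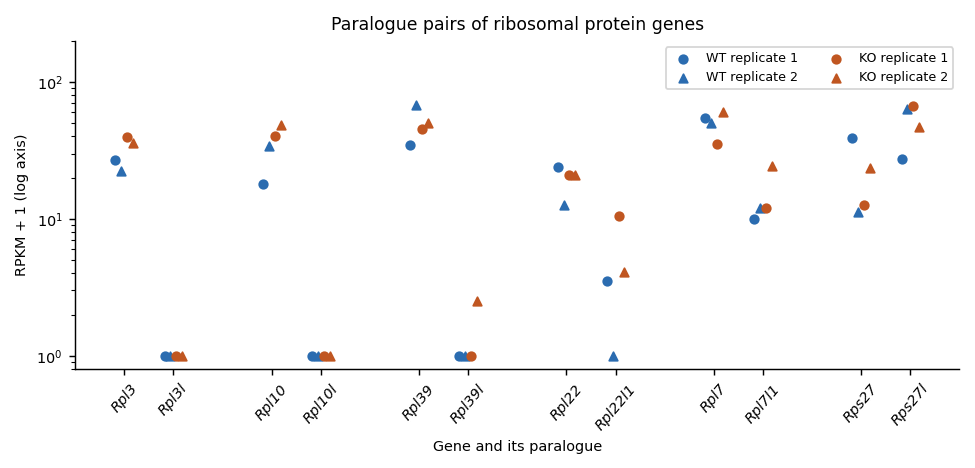
Signal (RPKM + 1, log axis) of 6 ribosomal protein genes and their paralogues, with 1 point per library. Rpl3l and Rpl10l sit at 0 RPKM in all 4 libraries, and Rps27l lies above Rps27 in all but WT replicate 1.

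Summed over all members, the share of protein-coding reads differed as much between replicates as between groups. It was 1.65% and 2.22% in the WT libraries and 1.29% and 1.87% in those labelled KO, with 95% Wilson intervals no wider than 2.16% to 2.28%. The group means were 1.93% ± 0.404 (SD, n = 2) and 1.58% ± 0.410 (SD, n = 2), and the exact permutation p (two-sided) was 0.667. Replicate 2 was the higher library in both groups. Without Rplp1, which alone took 0.0509% and 0.374% of the WT reads and 0.0185% and 0.0662% of those labelled KO, the shares were 1.60% and 1.84% against 1.27% and 1.80%. As a share of all reads, the order turned, with 0.684% and 0.752% in WT against 0.840% and 1.10% under the KO label (exact permutation p = 0.333). That denominator holds the mitochondrial rRNA and miRNA reads given above, and their part in the turn was not tested.

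The subunits were then summed apart. Large subunit genes took 1.10% and 1.39% of protein-coding reads in WT against 0.725% and 1.09% under the KO label, a narrow separation between 1.10% and 1.09% (exact permutation p = 0.333). Without Rplp1 the shares were 1.05% and 1.01% in WT against 0.707% and 1.02% under the KO label, which overlap (exact permutation p = 0.667). Small subunit genes took 0.547% and 0.832% in WT against 0.561% and 0.774% under the KO label, with overlap (exact permutation p = 1). The summed RPKM of the large subunit was 2.03 and 2.81 times that of the small subunit in WT, and 1.32 and 1.62 times under the KO label. Here too both KO values lay below both WT values (exact permutation p = 0.333, the smallest possible). Rplp1 weighed on this ratio. Without it the values were 1.73 and 1.28 in WT against 1.21 and 1.33 under the KO label, which overlap (exact permutation p = 0.667). Over the 4 sums and ratios compared (all members, each subunit and the ratio), the adjusted permutation p was at least 0.667.

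**Figure D4:**
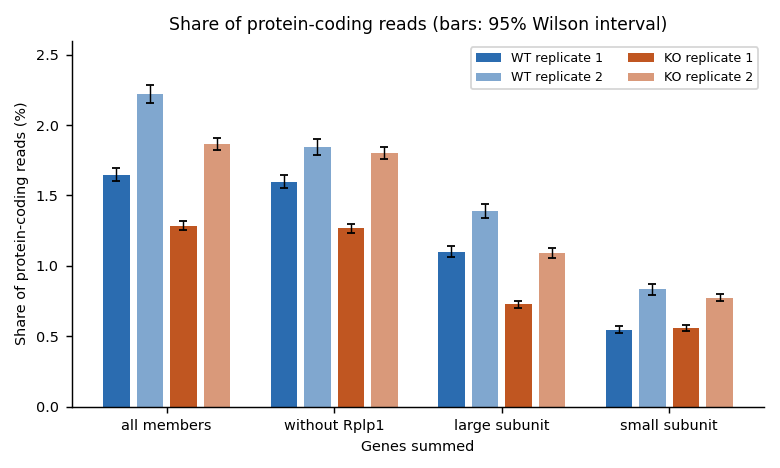
Share of protein-coding reads (%) on all ribosomal protein genes, on all but Rplp1, and on each subunit, for each library, with 95% Wilson intervals for counting error only. The KO replicate 2 bar of all members (1.87%) lies between the WT bars (1.65% and 2.22%).

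The coding sequences of the members were described next. They were short, with a median of 468 bases against 1182 for protein-coding genes, and rich in lysine and arginine, with a median of 21.5% against 11.1%. The median coding GC was 52.7%, close to the 51.8% of protein-coding genes. By the annotation, Rpl13a, Rps12 and Rps26 code for a run of 3 or more prolines, 3.61% of members against 20.03% of protein-coding genes. These runs are where ribosomes need eIF5A most. Rps12 had 11.46 and 7.33 RPKM in WT against 14.7 and 14.7 RPKM under the KO label, higher without overlap, with a log2 fold change of 0.62 ± 0.40 (SE, adjusted p 0.697 by limma) that was 0.33 without WT replicate 2. Rpl13a had 15.7 and 2.01 RPKM in WT against 2.61 and 3.51 RPKM, with a change of -0.81 ± 0.81 (SE) and WT replicate 1 standing apart, and without that library its change turned to 0.42.

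Coding GC varied with the change among the members much as among other genes. The Spearman correlation between coding GC and the log2 fold change was -0.37 over the 80 tested members and -0.36 over 9869 protein-coding genes, across genes that share the same 4 libraries. The 40 members with lower coding GC had a median change of 0.10 and the 40 with higher coding GC a median of -0.25. The lower-GC median turned to -0.13 without WT replicate 1 and to -0.14 without KO replicate 2. It stayed above the higher-GC median whichever library was left out. Members with a TOP tract at the listed start had a median change of -0.29 (29 genes), and those with a start but no tract had 0.09 (31 genes). This order did not hold without WT replicate 1, where the medians were -0.35 and -0.36. Their median coding levels were 323 and 301.

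**Figure D5:**
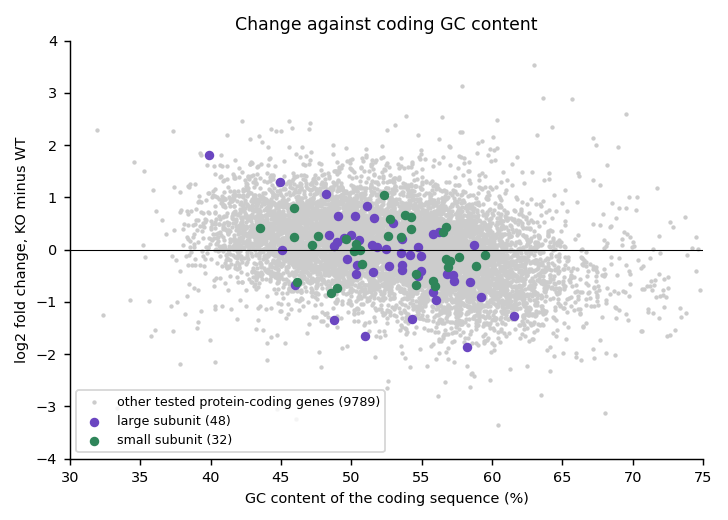
Log2 fold change (KO minus WT) against GC content of the coding sequence (%) for the 80 tested ribosomal protein genes (48 large subunit, 32 small subunit) and 9789 other tested protein-coding genes, of which 3 lie outside the axes. The members lie within the cloud and share its downward slope.

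Pseudogenes and small nucleolar RNAs were checked because they could take or add reads. Only pseudogenes bearing a member's name with the ending -ps were counted, so those with other names are missed. Of the members, 60 had 303 such entries, which held 52 reads in all against 22363 on the members. Whether multiply aligned reads were kept is not given, so these 52 reads cannot show how many reads the members lost. Members with a counted pseudogene entry had a median coding level of 300.1 and those without had 574. Of all members, 30 host 58 snoRNA genes. Those hosts had a median change of -0.006 (30 genes), and the others had -0.076 (50 genes). Both medians were -0.24 without KO replicate 2, while they were 0.31 and -0.09 without WT replicate 2.

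Genes around the ribosomal proteins were described from lists. Of 18 other TOP mRNAs, such as those for the elongation factors Eef1a1 and Eef2, 8 lay below 0 and 10 above, with a median of 0.12 and 0 at an unadjusted p under 0.05, a threshold that 3.04% of tested protein-coding genes passed as lower and 2.94% as higher. Rack1, which sits on the small subunit, had a change of 0.36 ± 0.59 (SE). It turned to -0.12 without WT replicate 1 and to -0.04 without KO replicate 2. Fau, whose product releases a ribosomal protein from a ubiquitin-like partner, had -0.62 ± 0.53 (SE), which was -0.01 without KO replicate 1. Of 12 regulators of TOP translation 10 were tested, with a median of -0.22, and Eif4ebp2 (-1.13, a repressor of the cap-binding protein) and Eif4e (1.23, the cap-binding protein) had unadjusted p of 0.0255 and 0.0249 by limma. Larp1 had -0.49 ± 0.45 (SE), and Mtor had -0.28 ± 0.40 (SE), which became -0.03 and 0.03 without WT replicate 1. Of 6 dedicated chaperones of ribosomal proteins 5 were tested, with a median of 0.24, and Heatr3, which serves Rpl5, had 1.73 (unadjusted p 0.00425 and adjusted p 0.538 by limma). None of these genes passed the adjusted threshold.

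Cell type markers were summed beside these values. Fewer cells of a type, less RNA per cell and fewer ribosomes per mRNA cannot be told apart in such samples. No mRNA libraries were used here. For Myod, a marker in the muscle list, the study reports lower ribosome signal with no difference in mRNA level. The 8 muscle lineage markers summed to 339 and 200 RPKM in WT against 98.4 and 120 RPKM under the KO label, with all 8 below 0. Itga7, at -0.02, turned to 0.41 without WT replicate 1 and to 0.80 without KO replicate 2. Of these, 5 had an unadjusted p under 0.05, beside 3.04% of tested protein-coding genes that were lower at this threshold, and 0 passed the adjusted threshold by limma. The 8 fibroblast markers summed to 474 and 281 RPKM in WT against 826 and 361 RPKM, 6 of them above 0. The 5 endothelial markers summed to 106 and 99.8 RPKM in WT against 139 and 112 RPKM, all above 0, and 1 of them (Kdr) had an unadjusted p under 0.05 by limma. The 5 immune markers summed to 28.4 and 38.5 RPKM in WT against 25.03 and 25.9 RPKM, and the 3 that were tested did not share a direction. Lyz2 (-1.16) and Cd68 (-0.36) lay below 0, while Adgre1, a macrophage marker, had 0.512 and 1.97 RPKM in WT against 4.43 and 4.21 RPKM under the KO label (1.33). Unadjusted p by limma was 0.0216 for Lyz2 and 0.0387 for Adgre1. Csf1r, too low to be tested, had 0.287 and 0 RPKM in WT against 1.15 and 1.29 RPKM. No listed marker was at 0 in all libraries, and the part of cell makeup in the ribosomal protein values was not tested.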

How the data were processed

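Ribosome-protected fragments of 4 mouse myoblast libraries (2 WT, 2 KO, grouped by their titles) were analysed. The deposited table holds RPKM values per gene. The study's methods name removal of rRNA and tRNA reads, TopHat2 alignment and HTSeq counting, and the submitters' processing notes give the build mm10. Whether multiply aligned reads were kept is not given in the sources used here. RPKM times gene length came in whole multiples of a single step in each library (100% within 0.001), which gave the reads.

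Genes whose mean reached 1 RPKM were fitted with limma 3.58.1 under R 4.3.3 on log2(RPKM + 1), using lmFit and then eBayes with a trend, with Benjamini-Hochberg adjustment over all tested genes. Fold changes on this scale understate the change of weakly read genes. Shares and ratios were compared by exact two-sided permutation over libraries (scipy 1.17.1), which cannot go below p = 0.333. Wilson intervals (95%) and floors of 3 reads cover counting error only, since amplified reads are not independent molecules. GENCODE M21 matched all 83 members at the same coordinates and gave exons and coding sequences.

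Named members were those with a known role in the stalk, 5S particle, tunnel, small subunit head or Diamond-Blackfan anaemia, paralogue pairs, and the 5 highest and 5 lowest by mean RPKM. The 5 lowest and 5 highest changes without overlap were added. Rpl30, Rpl13a, Rps12 and genes of the lists named for their values were chosen after these were seen. Some genes that this rule names are not reported here, and 5 members are counted but not plotted by name. The members and lists were chosen with earlier results of these data known. Alternatives were other pseudocounts, filters, scalings, a replicate block, limma-voom, removal of the coding GC trend and leaving out each library. The values without Rplp1 (all members, large subunit, ratio) were added after seeing the data.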

Additional observations from a re-analysis of the deposited data

How the results depend on the processing

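The 11 genes lower and 1 higher over the whole table at an adjusted p under 0.05 became 0 and 0 by limma under 7 alternatives, where the numbers of lower and of higher genes with an unadjusted p under 0.05 were as follows: pseudocount 0.1 (495 and 313), every gene above 0 (533 and 403), a minimum mean of 5 RPKM (327 and 178), the same sum over all genes (169 and 1689), protein-coding genes only (417 and 418), the replicate block (509 and 318) and the coding GC trend removed (259 and 396). Leaving out each library also gave 0 and 0, with an unadjusted p under 0.05 in 180 to 836 lower and 202 to 810 higher genes. Scaled to an equal protein-coding sum, 12 were lower and 1 higher. limma-voom gave 39 lower and 0 higher, where 319 higher genes had an unadjusted p under 0.05.

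Of the ribosomal protein genes, 2 were lower and 0 were higher by unadjusted p under 0.05. The lower count was 1 with a pseudocount of 0.1 or a minimum mean of 5 RPKM, 0 with the same sum over all genes, and 4 with limma-voom or the coding GC trend removed. The higher count was 1 with a pseudocount of 0.1 or every gene above 0, 11 with the same sum over all genes, and 2 with protein-coding genes only, limma-voom or the replicate block. Leaving out a library gave 0 to 5 lower (5 without WT replicate 2, 0 without WT replicate 1) and 0 to 3 higher. With a group of 1 library, that library is assumed to vary like the others. The cause of these shifts was not tested.

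The members' median of -0.019 became 0.54 with the same sum over all genes, and ranged from -0.24 without KO replicate 2 to 0.18 without KO replicate 1. The replicates share only a number. The deviations of same-numbered libraries correlated at 0.0575 over all genes and 0.23 over the members, and the replicate block moved no member past the adjusted threshold. The share of reads, 0.358 percentage points lower in the libraries labelled KO by group means, turned to 0.255 higher with all reads as the denominator, and lay between -0.647 and -0.068 when a library was left out. The log2 ratio of the subunits, -0.71, kept its sign in all alternatives, from -0.94 to -0.48 without a library, and was -0.23 without Rplp1 and -0.25 without the highest member of each subunit. Of 36 named and tested members, none passed the adjusted threshold under any alternative that could be fitted, and the sign turned in 10 without WT replicate 1, 7 without WT replicate 2, 7 without KO replicate 1 and 4 without KO replicate 2. Depth was low for 6 members, with fewer than 20 reads over the 4 libraries.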
